A study of Mus musculus with 21 samples.

Results

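The 10 genes described here belong to the bone morphogenetic protein (BMP) and transforming growth factor beta (TGF-beta) pathway and are known for their part in endothelial cells: the ligands Bmp2 and Bmp4, the receptors Acvrl1, Eng and Bmpr2, the inhibitory Smads Smad6 and Smad7, and the target genes Id1, Id2 and Id3. They were picked by symbol, and all 10 were found once among the 27968 genes of the sorted-cell table and once among the 19321 genes with values in the coculture table. The measurements are FPKM (fragments mapped to a gene, scaled to transcript length and library total) from mRNA sequencing of 21 mouse libraries, 3 in each of 7 groups. In the study, 129/ola mouse embryonic stem cells were taken through embryoid bodies in a 3D self-assembling peptide, and the colonies were then grown for 5 days on mitomycin C treated OP9 cells, a mouse bone marrow stromal line, or on 0.1% gelatin, in medium with SCF, IL-3 and Flt3 ligand.

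The coculture table holds the day 5 total cells of both conditions, 3D+OP9 and 3D+0.1%gel. The sorted-cell table holds mESC (129/ola stem cells sorted for SSEA-1), D5-LSKCD201+ and D5-LSKCD201- (both 129/ola, sorted on day 5 from the OP9 coculture), FL-LSKCD201+ (C57BL/6 fetal liver of embryos between embryonic days 12 and 13) and BM-LSKCD201+ (C57BL/6 bone marrow of mice aged 6 to 8 weeks). LSK stands for lineage-negative, Sca-1+ and c-kit+, the gate in which mouse hematopoietic stem cells are found, and CD201 is the product of Procr. In every comparison of a day 5 group with FL-LSKCD201+ or BM-LSKCD201+, the strain differs along with the source of the cells, and these cannot be told apart. OP9 cells are also of mouse origin, so any RNA of theirs cannot be told apart from that of the stem cell progeny in the 3D+OP9 libraries or, as far as OP9 cells passed the sort for lineage-negative, Sca-1+ and c-kit+ cells, in the D5 fractions. The labels do not say whether the 3 libraries of a group came from separate cultures or animals. The study calls the sorted libraries biological replicates and describes the FPKM of the D5 fractions as coming from independent experiments. The legend of the figure that holds the coculture RNA-seq panel also speaks of independent experiments, without saying whether this covers the sequenced libraries. For the other groups it was not found what was separate. Outside the D5 fractions, p-values are therefore taken to measure the spread between these libraries only.

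In this pathway, BMP and TGF-beta ligands bring type II receptors such as Bmpr2 together with type I receptors such as Acvrl1 (ALK1), which phosphorylate receptor Smads. ALK1 and its coreceptor endoglin, the product of Eng, are enriched in endothelium, and loss of either gene, or of Smad signaling downstream of them, is known to disturb blood vessels. Smad6 and Smad7 are induced by the pathway and feed back on it, and the Id genes, which encode helix-loop-helix proteins that lack a DNA-binding region, are classical BMP targets. Bmp4 is used widely to drive mesoderm and blood formation from stem cells.

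Of the 10 genes, 6 had a window in the RefSeq promoter table of build GRCm38.p6. Of the genes called between the day 5 fractions, these were Eng, Smad6 and Bmp4. The promoters of Eng and Smad6, a receptor and an inhibitory Smad, are printed because they hold Smad-related letters, and were chosen with the matches known, while Bmp4 held none and is not shown. Each sequence runs from 250 bases before to 20 bases after the RefSeq start, on the strand of the gene, with Smad-related letters in capitals. On both strands, 4 motifs were searched and put in capitals, namely the palindrome GTCTAGAC and the shorter CAGAC, to which Smads bind, and the GC-rich forms GGCGCC and, with any base at its N, GCCGNCGC. CAGAC and the palindrome share the letters AGAC, and no motif contains another. ACTTCC, the core of ETS factor sites, was also searched and was left in lower case.
Smad6, chr9:64022040-64022309, minus strand: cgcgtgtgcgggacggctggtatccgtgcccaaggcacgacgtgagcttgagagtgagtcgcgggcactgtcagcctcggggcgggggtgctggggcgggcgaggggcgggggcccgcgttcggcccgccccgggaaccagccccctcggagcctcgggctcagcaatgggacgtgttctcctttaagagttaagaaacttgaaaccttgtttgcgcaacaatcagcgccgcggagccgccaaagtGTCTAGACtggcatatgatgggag
Eng, chr2:32646345-32646614, plus strand: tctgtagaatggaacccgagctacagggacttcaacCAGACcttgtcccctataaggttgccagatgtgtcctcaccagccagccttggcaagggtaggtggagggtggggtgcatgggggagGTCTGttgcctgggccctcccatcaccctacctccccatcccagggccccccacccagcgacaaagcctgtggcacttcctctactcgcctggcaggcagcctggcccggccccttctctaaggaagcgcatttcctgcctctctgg

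In Smad6, GTCTAGAC lay over the RefSeq start, from 4 bases before it to base 4 after it. This motif was present in 0.183% of the 32851 windows of the same length. In Eng, CAGAC began 214 bases before the start on the plus strand and lay 127 to 123 bases before it on the minus strand, and ACTTCC lay 53 to 48 bases before it. CAGAC was present in 45.4% of all windows and ACTTCC in 21.7%. The GC-rich forms GGCGCC and GCCGNCGC, present in 10.4% and 7.77% of all windows, were found in neither sequence. Among the other windows, CAGAC was found in Id3, GGCGCC in Id2 and Bmpr2, and none of the searched letters in Bmp4. A match describes the letters only.

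On GRCm38, the build that the deposited positions fit, Acvrl1 is on chromosome 15 (101128521-101145336, plus strand), Bmp2 on chromosome 2, Bmp4 on chromosome 14, Bmpr2 on chromosome 1, Smad7 on chromosome 18, Id1 on chromosome 2, Id2 on chromosome 12 and Id3 on chromosome 4. All are protein-coding. The deposited span of Eng ends at 32704145, beyond the GENCODE M21 end at 32682669, and covers Fpgs and 4 small genes. The deposited span of Bmp4 begins at 46379413, outside the GENCODE start at 46383520, and covers Gm15217 and Gm15222. That of Id2, on the minus strand, ends at 25096092, short of the GENCODE end at 25097140. The RefSeq start used for the Id2 promoter window lay 0 bases from the deposited start. Fpgs is listed with the same span as Eng and with values of its own, at means of 23.9 ± 1.57 FPKM in D5-LSKCD201+, against 41.9 ± 3.16 in D5-LSKCD201-. How fragments where genes overlap were shared out is not given in the sources used here.

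The sorted groups were checked against markers. Procr averaged 59.7 FPKM in D5-LSKCD201+, against 3.48 in D5-LSKCD201-, as the gate requires. All 10 endothelial markers reached a mean of 1 FPKM in both D5 fractions, against 8 in FL-LSKCD201+ and 6 in BM-LSKCD201+. Their summed level was 1974 to 2003 FPKM in D5-LSKCD201+, 208 to 227 in D5-LSKCD201-, 448 to 492 in FL-LSKCD201+, 319 to 360 in BM-LSKCD201+ and 50.5 to 53.5 in mESC. Single genes weighed on these sums, with Egfl7 at means of 286 in FL-LSKCD201+ and 202 in BM-LSKCD201+, and Sox17 at 98.5 in D5-LSKCD201-. Cdh5, Kdr, Sox17 and Sox7 had lower means in both tissue groups than in D5-LSKCD201-. Tie1, Emcn, Esam and Egfl7 had higher ones, and Pecam1 and Tek were mixed. The summed level of 10 hematopoietic markers was 185 to 190 FPKM in D5-LSKCD201+ and 64.3 to 71.5 in D5-LSKCD201-, against 1438 to 1701 in FL-LSKCD201+ and 1598 to 1719 in BM-LSKCD201+. Within that list, D5-LSKCD201+ was mixed. Ptprc, Cd48 and Myb averaged 0.41, 0.05 and 0.45 FPKM there, against 0.63, 0.06 and 3.32 in D5-LSKCD201-. Itga2b, Lcp1 and Spi1 averaged 45.2, 92.2 and 12.96 FPKM, against 3.78, 10.1 and 5.90 in D5-LSKCD201-, and Itga2b was also above its means of 8.50 in FL-LSKCD201+ and 11.6 in BM-LSKCD201+. D5-LSKCD201- kept 3749 to 4247 FPKM of 8 pluripotency markers, against 6835 to 7400 in mESC and 24.5 to 32.8 in D5-LSKCD201+. Smooth muscle markers (5 genes) summed to 303 to 419 FPKM in D5-LSKCD201-, against 92.0 to 104 in D5-LSKCD201+. The 6 erythroid markers summed to 46.8 to 117 FPKM in D5-LSKCD201- and 15.5 to 31.4 in D5-LSKCD201+. Their sum was highest in FL-LSKCD201+, at 294 to 424 FPKM, against 2.92 to 11.2 in BM-LSKCD201+, with Klf1 at means of 185 and 6.16. Hbb-bh1 and Hba-x instead had their highest mean in D5-LSKCD201-, at 51.9 and 13.1 FPKM. In FL-LSKCD201+ they averaged 18.2 and 6.03, and the ranges of Hba-x overlapped. The 10 stromal markers summed to 109 to 119 FPKM in D5-LSKCD201+, 55.7 to 92.7 in D5-LSKCD201-, 17.9 to 19.6 in FL-LSKCD201+ and 11.03 to 11.9 in BM-LSKCD201+. Col1a1 was at means of 29.8 in D5-LSKCD201+ and 19.5 in D5-LSKCD201-. Pdgfra, Pdgfrb and Fbln2 had the higher mean in D5-LSKCD201-, and the rest of the stromal list in D5-LSKCD201+. Vcam1, at means of 5.09 in FL-LSKCD201+ and 4.71 in BM-LSKCD201+, was above both D5 fractions. So were Postn in FL-LSKCD201+ (10.5) and Pdgfrb in BM-LSKCD201+ (3.44). The part of these differences in makeup in the results that follow was not tested, and in bulk samples fewer cells of a type and less RNA per cell cannot be told apart.

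Of the 10 genes, 7 had their highest mean in D5-LSKCD201+, namely Bmp2, Acvrl1, Eng, Smad6, Id1, Id2 and Id3, while 16.8% of the 14442 genes that averaged 0.5 FPKM or more across all sorted libraries were highest there. For Smad6 the range overlapped that of FL-LSKCD201+. Bmp4 was highest in D5-LSKCD201-, and Bmpr2 and Smad7 were highest in BM-LSKCD201+. Between the D5 fractions, Acvrl1, Eng, Smad6 and Bmp2 were higher in D5-LSKCD201+ and Bmp4 was lower. A gene was called where the adjusted p of limma was under 0.05 and the log2 change of FPKM + 1 was at least 1 in size, and 5 of the 10 genes were called. Over all 13691 genes tested, 24.7% were called, 10.8% as higher and 13.9% as lower. The values of the fractions did not overlap for 9 of the 10 genes, against 73.6% of all genes tested. The median log2 change of the 10 genes was 0.77, against -0.12 over all genes.

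**Figure D1:**
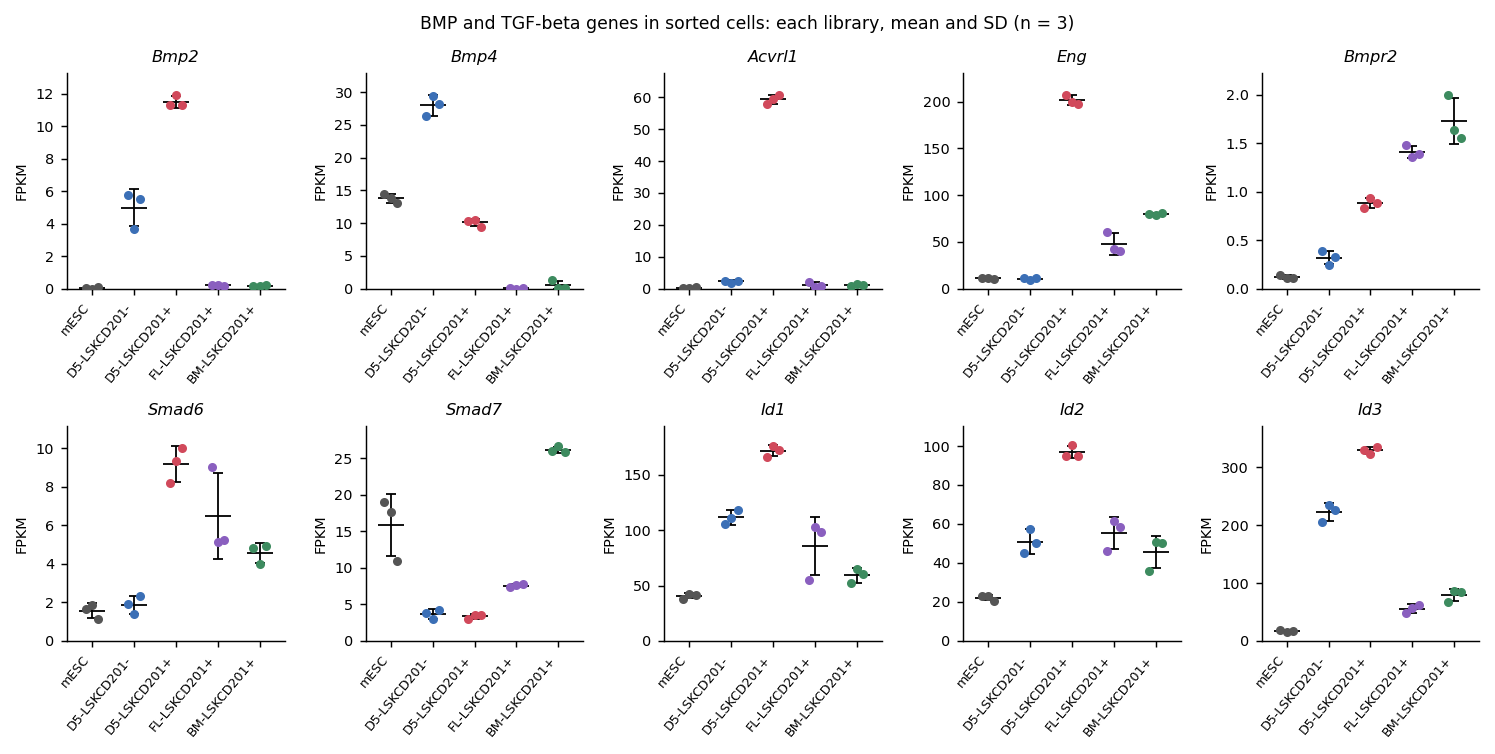
FPKM of the 10 genes in the sorted-cell libraries, 1 panel per gene with its own linear axis from 0. Points are libraries, the horizontal bar is the mean and the error bar the SD of 3 libraries. Acvrl1 stood at 57.9 to 60.7 FPKM in D5-LSKCD201+, against 2.50 or less in every other library, while Smad7 was highest in BM-LSKCD201+.

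Among the 10 genes, the receptors Acvrl1 and Eng differed most between the fractions. Acvrl1, the type I receptor ALK1, was at 57.9, 59.5 and 60.7 FPKM in D5-LSKCD201+, against 2.30, 1.86 and 2.50 in D5-LSKCD201-. The D5-LSKCD201+ mean of 59.3 ± 1.38 FPKM (SD, n = 3) was 26.7 times that of D5-LSKCD201-. On the log2 scale of FPKM + 1 the change was 4.23 (SE 0.09, adjusted p = 9.08e-08), the 39th largest increase of the genes tested. The other groups were all low, with means of 1.17 ± 0.902 FPKM in FL-LSKCD201+, 1.09 ± 0.26 in BM-LSKCD201+ and 0.228 ± 0.14 in mESC. In the order of levels, D5-LSKCD201- and FL-LSKCD201+ overlapped, as did FL-LSKCD201+ and BM-LSKCD201+.

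Eng, the coreceptor endoglin, was at 208, 199 and 198 FPKM in D5-LSKCD201+, against 11.1, 9.66 and 11.49 in D5-LSKCD201-. These groups were far apart, with a log2 change of 4.11 (SE 0.07, adjusted p = 4.5e-08). Unlike Acvrl1, Eng was also high in the cells of both tissues. It stood at 80.1, 78.8 and 80.8 FPKM in BM-LSKCD201+ and at 60.8, 42.3 and 39.8 in FL-LSKCD201+. D5-LSKCD201- and mESC overlapped, at means of 10.8 ± 0.962 and 10.8 ± 0.499 FPKM (log2 change -0.01, adjusted p = 0.967). The sign of that small change turned without mESC replicate 1 or D5-LSKCD201- replicate 2.

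Bmpr2, the type II receptor for BMP, was low in all sorted libraries and followed another order. It was highest in BM-LSKCD201+ at 1.999, 1.63 and 1.55 FPKM, then FL-LSKCD201+ at 1.48, 1.35 and 1.39, then D5-LSKCD201+ at 0.835, 0.937 and 0.886. D5-LSKCD201- followed at 0.320 ± 0.0713 and mESC at 0.119 ± 0.0157. No neighbours in this order overlapped. Its log2 change between the fractions was 0.52 (SE 0.08, adjusted p = 0.00093), under the size required for a call, while the plain ratio of means was 2.77. With a pseudocount of 0.1 in place of 1 it was 1.24 and was called. The pseudocount of 1 exceeded each of its values in both fractions.

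The ratio of Eng to Acvrl1 in each library sets these patterns side by side, on a scale that is already per transcript length. It was 3.40 ± 0.169 in D5-LSKCD201+, against 4.88 ± 0.303 in D5-LSKCD201-, and the ranges of these groups did not overlap. It was 54.5 ± 31.0 in FL-LSKCD201+, 76.0 ± 18.002 in BM-LSKCD201+ and 60.1 ± 33.0 in mESC. Acvrl1, the denominator, was at 2.19 FPKM or less in every library of these 3 groups.

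The inhibitory Smads moved apart. Smad6, which acts mainly on BMP signaling, was at 8.19, 9.31 and 10.01 FPKM in D5-LSKCD201+, against 1.93, 1.37 and 2.32 in D5-LSKCD201-. The groups did not overlap, and the log2 change was 1.83 (SE 0.15, adjusted p = 3.06e-05). FL-LSKCD201+ was at 9.03, 5.14 and 5.21 FPKM, with replicate 1 inside the range of D5-LSKCD201+, and BM-LSKCD201+ was at 4.79, 3.98 and 4.92.

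Smad7, which inhibits both TGF-beta and BMP receptors, was at 3.00, 3.58 and 3.51 FPKM in D5-LSKCD201+, against 3.83, 2.97 and 4.23 in D5-LSKCD201-. These ranges overlapped, with a log2 change of -0.09 (SE 0.13, adjusted p = 0.546), and the sign turned under quantile normalization. It was at 7.30, 7.61 and 7.78 FPKM in FL-LSKCD201+ and at 26.0, 26.6 and 25.9 in BM-LSKCD201+. In mESC it was at 19.0, 17.6 and 10.95. Both D5 fractions were thus below every library of the other groups.

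As a ratio, Smad6 over Smad7 was 2.73 ± 0.128 in D5-LSKCD201+, 0.861 ± 0.326 in FL-LSKCD201+, 0.504 ± 0.0444 in D5-LSKCD201-, 0.175 ± 0.022 in BM-LSKCD201+ and 0.0992 ± 0.0101 in mESC. D5-LSKCD201+ was the only sorted group in which Smad6 exceeded Smad7 in all 3 libraries. In FL-LSKCD201+, replicate 1 alone was above 1, at 1.24.

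**Figure D2:**
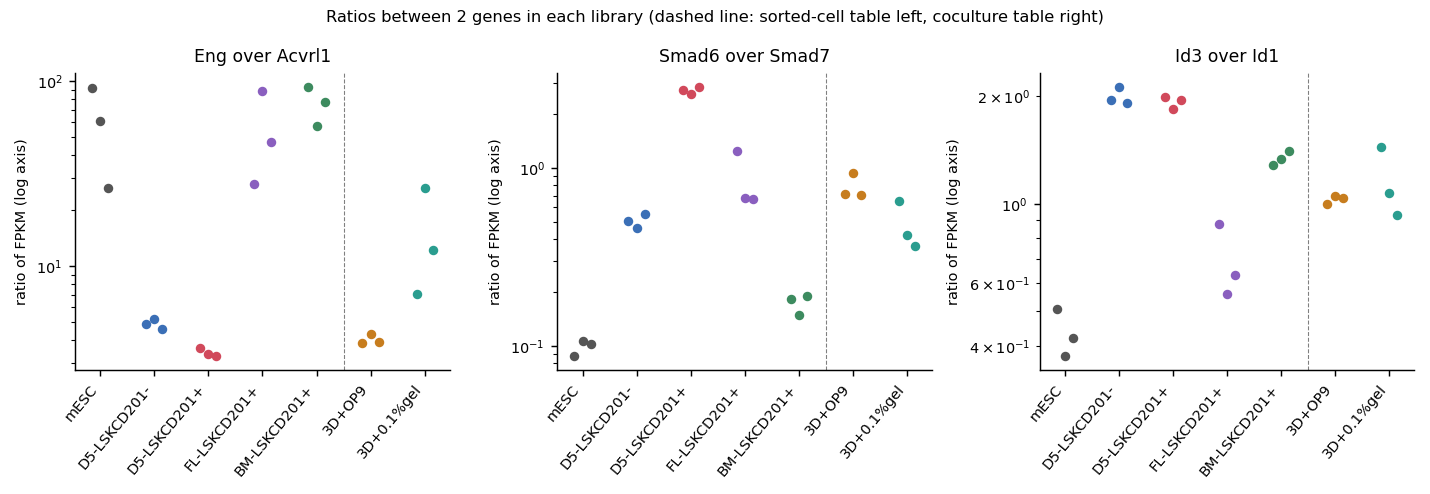
Ratios of FPKM between 2 genes in each library on log axes, for Eng over Acvrl1, Smad6 over Smad7 and Id3 over Id1, with 1 point per library. The dashed line parts the sorted-cell table from the coculture table. Eng over Acvrl1 was at most 5.20 in the D5 fractions and the 3D+OP9 libraries, and Smad6 over Smad7 was above 2.60 in D5-LSKCD201+.

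The ligands Bmp2 and Bmp4 went in opposite directions between the fractions. Bmp2 was at 11.3, 11.9 and 11.3 FPKM in D5-LSKCD201+, against 5.79, 3.67 and 5.51 in D5-LSKCD201-, a log2 change of 1.08 (SE 0.15, adjusted p = 0.000532). Without D5-LSKCD201- replicate 2, the lowest of its group, the change was 0.91 and no longer called. Bmp4 was at 10.4, 10.5 and 9.46 FPKM in D5-LSKCD201+, against 26.3, 29.4 and 28.2 in D5-LSKCD201-, a log2 change of -1.38 (SE 0.08, adjusted p = 4.43e-06). The Bmp4 to Bmp2 ratio was 0.880 ± 0.0413 in D5-LSKCD201+, against 5.89 ± 1.86 in D5-LSKCD201-. D5-LSKCD201- replicate 2 correlated less with the other libraries of its group (r of 0.984 and 0.983 across genes) than these did with each other (0.997).

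In the cells from both tissues the ligands were almost absent. In FL-LSKCD201+ and BM-LSKCD201+, Bmp2 stood at 0.234 FPKM or less in every library. Bmp4 was at 0.137 FPKM or less in 5 of those 6 libraries, and BM-LSKCD201+ replicate 1 held 1.23. In mESC, Bmp2 was at 0.0786 FPKM or less, while Bmp4 was at 14.5, 13.9 and 13.05. Depth is unknown, so no floor can be given for these low values.

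The Id genes were high in all sorted groups and highest in D5-LSKCD201+. Id1 was at 166, 176 and 172 FPKM there and at 105, 111 and 118 in D5-LSKCD201-. Id2 was at 95.1, 100.3 and 95.0 against 45.0, 57.5 and 50.4. Id3 was at 330, 324 and 335 against 206, 236 and 226.

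None of the Id ranges overlapped, and the log2 changes were 0.62 for Id1 (SE 0.06, adjusted p = 6.72e-05), 0.92 for Id2 (SE 0.09, adjusted p = 8.69e-05) and 0.57 for Id3 (SE 0.06, adjusted p = 0.000148). All stayed under the size required for a call. Without D5-LSKCD201- replicate 2, Id2 reached 1.01 and was called. The Id genes were also higher in D5-LSKCD201- than in mESC. In that comparison, Id3 had a log2 change of 3.59 (SE 0.09, adjusted p = 3.83e-07), from 17.6 ± 1.74 FPKM in mESC to 223 ± 15.3, Id1 of 1.43 (SE 0.07) and Id2 of 1.16 (SE 0.10).

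The balance within the Id genes differed by source. Id3 over Id1 was 1.92 ± 0.0747 in D5-LSKCD201+, against 1.997 ± 0.11 in D5-LSKCD201-, with overlapping ranges. It was 0.435 ± 0.067 in mESC, 0.689 ± 0.166 in FL-LSKCD201+ and 1.34 ± 0.057 in BM-LSKCD201+. Id1 thus exceeded Id3 in all libraries of mESC and FL-LSKCD201+, and Id3 exceeded Id1 in all libraries of the other sorted groups.

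Against mESC, 8 of the 10 genes were called in D5-LSKCD201+, 7 higher and 1 lower, where 37.6% of all 13441 genes tested were called (19.5% higher, 18.1% lower). No values overlapped for any of the 10, against 86.1% of all genes. The change was largest for Acvrl1 at 5.62 (SE 0.09), followed by Id3 at 4.16 (SE 0.06), Eng at 4.10 (SE 0.04) and Bmp2 at 3.59 (SE 0.08). Smad7 fell by 1.92 on the log2 scale (SE 0.17, adjusted p = 6.01e-06). Bmp4 (-0.41) and Bmpr2 (0.75) did not reach the size of a call, though both adjusted p were under the threshold, at 0.000259 and 8.27e-06.

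In D5-LSKCD201- against mESC, 9 of the 10 genes were tested, since Bmpr2 was below the filter on low values. Of these, 6 were called, with Bmp2, Acvrl1, Id1, Id2 and Id3 higher and Smad7 lower, where 14.3% of 13596 genes were called (10.9% higher, 3.48% lower). Values did not overlap for 7 of the 9, against 64.4% of all genes. Bmp4 was close to a call at 0.97 (SE 0.07, adjusted p = 4.19e-05), from a mean of 13.8 FPKM in mESC to 27.97. It was called with a pseudocount of 0.1 (1.014), without mESC replicate 1 (1.002) and without D5-LSKCD201- replicate 1 (1.011). Eng and Smad6 were the 2 genes called against mESC in D5-LSKCD201+ and not in D5-LSKCD201-. Both also passed in the direct comparison of the fractions, at 4.11 and 1.83. Acvrl1 rose in both fractions, by 1.39 (SE 0.12) in D5-LSKCD201- and by 5.62 in D5-LSKCD201+. These comparisons share their mESC libraries.

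Against the same phenotype sorted from tissue, the D5-LSKCD201+ cells were higher for most of the genes. Against FL-LSKCD201+, 6 of the 10 were called, all higher, namely Bmp2, Bmp4, Acvrl1, Eng, Id1 and Id3, where 34.7% of 13627 genes were called (15.1% higher, 19.6% lower). Values did not overlap for 9 of 10, Smad6 excepted, against 76.6% of all genes. The change was 4.87 for Acvrl1 (SE 0.26, adjusted p = 4.79e-06), 3.38 for Bmp2 (SE 0.08), 3.36 for Bmp4 (SE 0.09), 2.55 for Id3 (SE 0.10) and 2.08 for Eng (SE 0.16).

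Id1 was at 55.1, 103 and 98.0 FPKM in FL-LSKCD201+. Its change of 1.05 (SE 0.23, adjusted p = 0.00508) was 0.77 without the low replicate 1, which ends the call. That library correlated less with the other FL-LSKCD201+ libraries (r of 0.979 and 0.981 across genes) than these did with each other (0.998), and it was also the highest of its group for Acvrl1, Eng and Smad6. Smad6 (0.48, adjusted p = 0.0673) was not called. Smad7 (-0.98) was just under the size of a call on the scale of FPKM + 1, with a mean in FL-LSKCD201+ 2.25 times that in D5-LSKCD201+, and it was called at -1.15 with a pseudocount of 0.1.

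Against BM-LSKCD201+, 8 of the 10 genes were called, 7 higher and 1 lower, where 44.7% of 13775 genes were called (17.5% higher, 27.2% lower). No values overlapped for any of the 10, against 85.3% of all genes. Acvrl1 rose by 4.86 (SE 0.10), Bmp2 by 3.40 (SE 0.08), Bmp4 by 2.97 (SE 0.26), Id3 by 2.05 (SE 0.10), Id1 by 1.53 (SE 0.08), Eng by 1.32 (SE 0.04) and Id2 by 1.08 (SE 0.13). Smad7 fell by 2.64 on the log2 scale (SE 0.07, adjusted p = 4.92e-08), and the mean in BM-LSKCD201+ was 7.78 times that in D5-LSKCD201+. Id2 was at 36.0, 50.6 and 50.4 FPKM in BM-LSKCD201+, and its call ended without replicate 1 (0.92). Smad6, at 0.87 (SE 0.11), was called under quantile normalization (1.19).

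Between the tissues, 1 of the 8 genes tested was called, Smad7, with 19.1% of 13503 genes called over the whole table (7.78% higher in FL-LSKCD201+, 11.3% lower). Bmp2 and Bmp4 were below the filter. Smad7 fell by 1.67 on the log2 scale in FL-LSKCD201+ relative to BM-LSKCD201+ (SE 0.09, adjusted p = 9.08e-06). Values did not overlap for 5 of the 8, against 63.5% of all genes. Eng (-0.76, SE 0.16, adjusted p = 0.00523) and Id3 (-0.50, SE 0.14, adjusted p = 0.0184) were lower in FL-LSKCD201+ without reaching the size of a call. The first library of both groups stood apart from the others of its group. The erythroid markers given above also differ between these groups, and their part in this comparison and in that against FL-LSKCD201+ was not tested. Leaving out both first libraries, an alternative chosen after seeing the data, again gave 1 called gene, with Smad7 at -1.65.

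**Figure D3:**
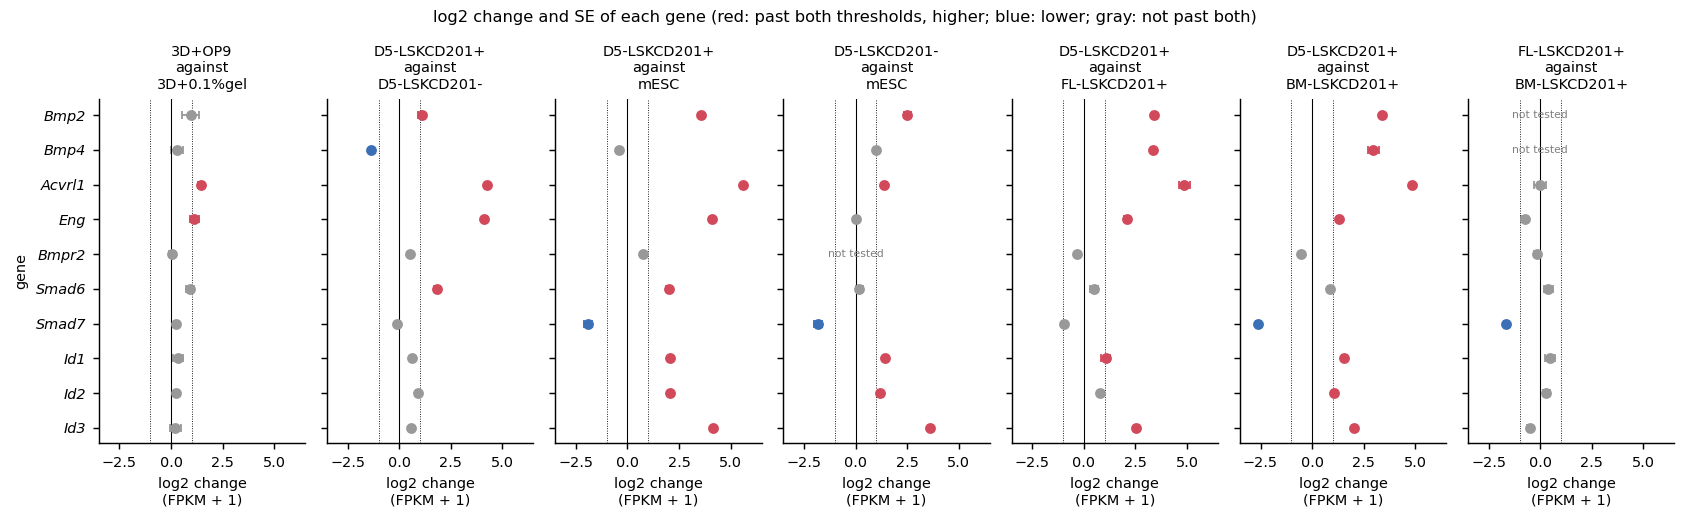
The log2 change of FPKM + 1 of each gene (horizontal axis) in the 7 comparisons, 1 panel each, with bars for the SE and dotted lines at a change of 1 in either direction. Red points were called higher, blue points lower, and gray points were not called. Acvrl1 was called higher in 6 of the 7 panels, and in the last, the comparison of the tissues, its change was -0.02. Panels that hold the same sorted group share its libraries, so these calls are not independent of each other.

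In total cells of the coculture, the receptors Acvrl1 and Eng were higher on OP9 than on gelatin. Of the 10 genes, these 2 were called, where 2.62% of 12958 genes were called (2.11% higher, 0.509% lower). Values did not overlap for 5 of the 10, against 28.7% of all genes. The median log2 change of the 10 was 0.31, against 0.01 over all genes. Levels here are on the scale of the coculture table, which was normalized on its own.

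Acvrl1 was at 2.44, 2.38 and 3.47 FPKM in 3D+OP9 and at 0.43, 0.20 and 0.44 in 3D+0.1%gel. The groups were apart in every library, with a log2 change of 1.46 (SE 0.16, adjusted p = 0.00276) and a ratio of means of 7.75. Eng was at 9.35, 10.3 and 13.5 FPKM in 3D+OP9 and at 3.05, 5.27 and 5.40 in 3D+0.1%gel. Its change of 1.13 (SE 0.21, adjusted p = 0.0213) was called with all libraries, but the call rested on several of them. It ended without 3D+OP9 replicate 2 (1.17, adjusted p = 0.0712), without 3D+OP9 replicate 3 (0.99), without 3D+0.1%gel replicate 1 (0.91) and without 3D+0.1%gel replicate 2 (1.23, adjusted p = 0.0674).

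Smad6 was at 16.7, 20.7 and 16.4 FPKM in 3D+OP9 and at 12.6, 8.03 and 7.25 in 3D+0.1%gel. The groups did not overlap, and the log2 change of 0.91 (SE 0.20, adjusted p = 0.0365) stayed under the size of a call. It was called without 3D+0.1%gel replicate 1, at 1.13. Smad7 was at 23.5, 22.0 and 23.1 against 19.2, 19.0 and 19.9 FPKM, and its change of 0.23 did not pass (adjusted p = 0.127).

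Bmp2 was at 26.8, 29.7 and 9.87 FPKM in 3D+OP9 and at 14.9, 7.65 and 8.16 in 3D+0.1%gel. 3D+OP9 replicate 3 lay within the range of 3D+0.1%gel, and the change of 0.96 (SE 0.41, adjusted p = 0.219) was not called. Without that library, the change was 1.44 (adjusted p = 0.0109). Bmp4 ranged from 18.9 to 28.6 FPKM in 3D+OP9 and from 15.4 to 32.6 in 3D+0.1%gel, and Bmpr2 from 5.04 to 6.66 and from 4.85 to 6.79, so that neither was separated.

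Replicate 3 of 3D+OP9 was also low for Id1 and Id3. Id1 was at 290, 268 and 142 FPKM in 3D+OP9 and at 165, 180 and 185 in 3D+0.1%gel. Id3 was at 290, 281 and 147 against 237, 193 and 172. Neither passed, at changes of 0.34 and 0.20 and adjusted p of 0.469 and 0.696. This library held 1657 FPKM of the pluripotency markers, against 826 and 831 in the other 3D+OP9 libraries and 1277 to 1366 in 3D+0.1%gel. These markers did not share a direction. Zfp42 was higher in 3D+OP9, at 30.95 to 53.24 against 3.88 to 7.71 FPKM. So was Esrrb, at 24.93 to 46.1 against 2.01 to 2.19, and Dppa5a, at 111 to 350 against 71.03 to 102. Pou5f1 was lower, at 327 to 503 against 579 to 653 FPKM, and so was Nanog, at 70.31 to 76.7 against 106 to 171. Sox2, Tdgf1 and Utf1 overlapped. The part of replicate 3 of 3D+OP9 in the result was not tested. Id2 was at 75.9 to 82.7 against 63.7 to 71.2 FPKM, apart but with an adjusted p of 0.104.

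Cell markers moved with the coculture difference. The summed level of the 10 endothelial markers was 124 to 149 FPKM in 3D+OP9 and 24.8 to 43.2 in 3D+0.1%gel, with Cdh5 at means of 28.5 and 1.73. The list of 10 stromal genes, of the kind that OP9 cells could bring, summed to 70.4 to 81.0 against 28.8 to 41.9 FPKM, and 6 erythroid markers to 184 to 699 against 0.74 to 15.4. The 10 hematopoietic markers summed to 28.8 to 39.4 against 15.6 to 19.5 FPKM, with Itga2b at means of 7.003 and 0.40. Within that list Coro1a was lower in 3D+OP9, at 1.54 to 3.38 against 4.09 to 4.61 FPKM. All its other members had a higher mean in 3D+OP9, but Lcp1, Myb, Ptprc and Cd48 overlapped. Lcp1 was at 2.19 to 3.09 against 1.39 to 3.15 FPKM, and Myb at 4.14 to 11.56 against 3.79 to 4.61. Ptprc and Cd48 did not exceed 0.11 FPKM in any of these libraries. Smooth muscle markers summed to less in 3D+OP9, at 94.8 to 116 against 266 to 286 FPKM. Tagln was at means of 26.9 and 136, while Acta2 alone among them overlapped, at 28.4 to 40.2 against 34.8 to 46.9 FPKM. The part of these cell types in the change of Acvrl1 and Eng was not tested.

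**Figure D4:**
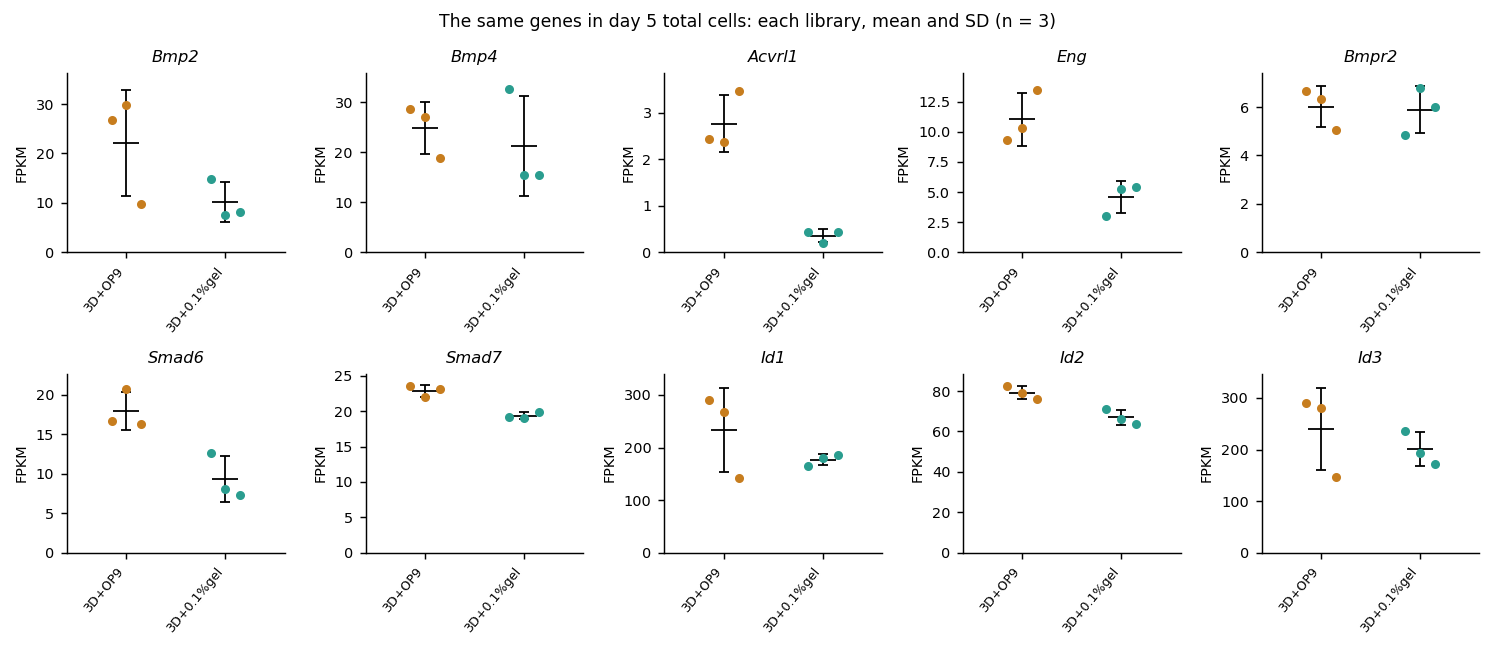
FPKM of the 10 genes in the day 5 total cells of 3D+OP9 and 3D+0.1%gel, 1 panel per gene with a linear axis from 0. Points are libraries, the horizontal bar is the mean and the error bar the SD of 3 libraries. Acvrl1, Eng, Smad6, Smad7 and Id2 did not overlap, and 1 library of 3D+OP9 was low for Bmp2, Id1 and Id3.

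The other genes of the pathway were read from a list of 61 ligands, receptors, Smads, antagonists or modulators and targets. Between the D5 fractions, 50 were tested, and 7 were called higher in D5-LSKCD201+ and 19 lower, which is 52% of those tested, against 24.7% of all genes (10.8% higher, 13.9% lower). The median change was -0.33. Of the 12 ligands tested, with the inhibitory ligands Lefty1 and Lefty2 counted among them, 1 rose and 7 fell, and of the 9 receptors, 3 rose and 2 fell. Of 18 antagonists or modulators, 2 rose and 6 fell, of 6 targets 1 rose and 4 fell, and none of the 5 Smads tested (Smad1 to Smad5) was called.

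The 4 largest increases were those of Tmem100 (3.83, SE 0.09), which acts downstream of ALK1 in endothelium, Tgfbr2 (3.55, SE 0.12), the type II TGF-beta receptor, Sost (2.64, SE 0.12), the secreted inhibitor sclerostin, and Tgfbr3 (1.95, SE 0.18), the coreceptor betaglycan. Tmem100 stood at 54.0 ± 0.588 FPKM in D5-LSKCD201+, 2.87 ± 0.382 in D5-LSKCD201- and at 0.636 or less in every library of the other sorted groups. Tgfbr2 stood at 21.8 ± 0.309 FPKM in D5-LSKCD201+, against 0.959 ± 0.286 in D5-LSKCD201-, with 10.4 ± 0.241 in BM-LSKCD201+ and 6.25 ± 1.39 in FL-LSKCD201+.

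The 4 largest decreases were those of Cer1 (-5.72, SE 0.10), Lefty1 (-5.68, SE 0.08), Lefty2 (-5.43, SE 0.13) and Gdf3 (-4.73, SE 0.11). Cer1 and the Lefty genes encode secreted inhibitors of Nodal, and Gdf3 is a ligand of the same branch found in stem cells. Lefty1, Lefty2 and Gdf3 stood at 359, 222 and 81.8 FPKM in mESC, at 131, 88.4 and 32.0 in D5-LSKCD201-, and then at 1.59, 1.07 and 0.240 in D5-LSKCD201+. Cer1 was at 0.097 FPKM in mESC, and D5-LSKCD201- held 117, against 1.24 in D5-LSKCD201+. The ligands of ALK1, Gdf2 and Bmp10, did not exceed 0.0529 FPKM in any library of the sorted-cell or coculture table.

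**Figure D5:**
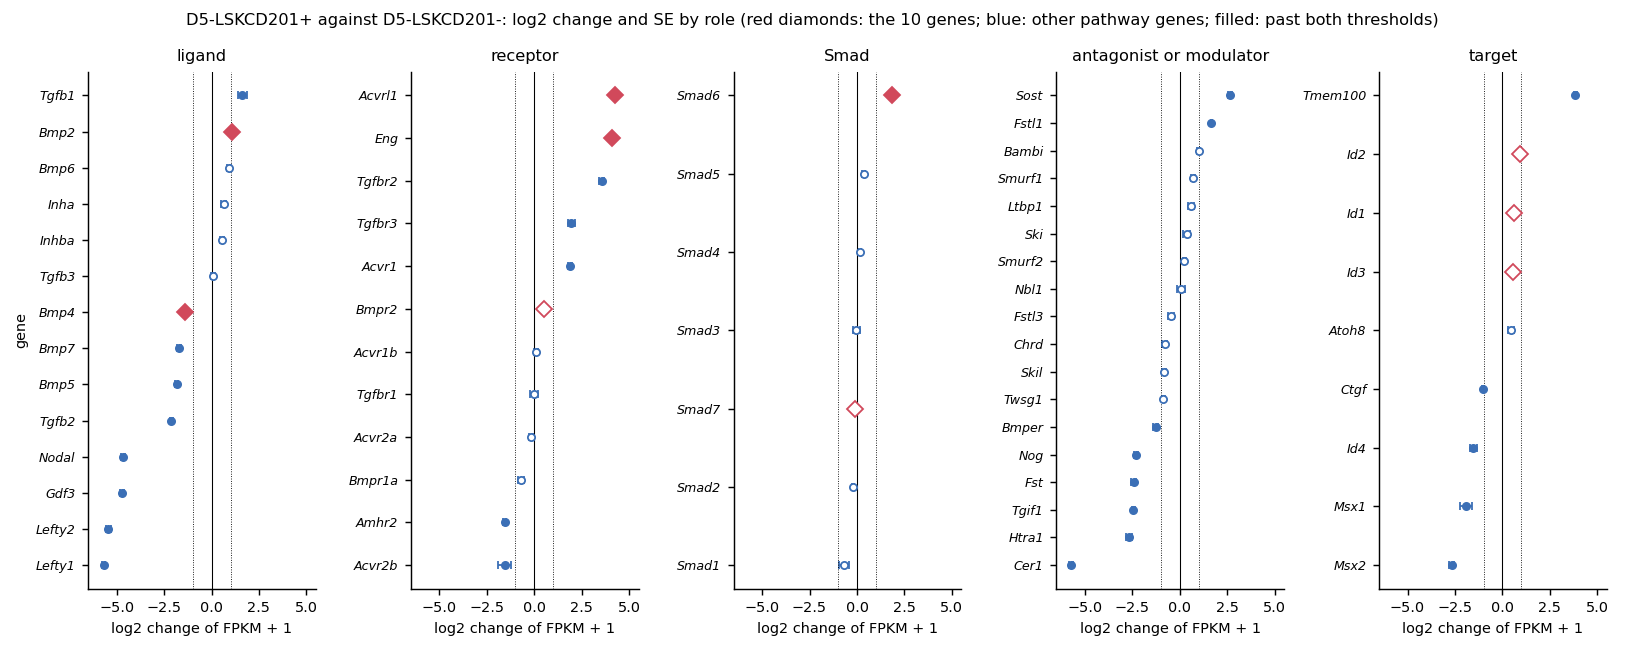
Log2 change of FPKM + 1 in D5-LSKCD201+ against D5-LSKCD201- (horizontal axis) for the 10 genes (red diamonds) and the 50 other pathway genes tested (blue circles), 1 panel per role, with SE bars. Filled symbols were called, and dotted lines mark a change of 1 in either direction. Eng and Acvrl1 lay above Tgfbr2 among the receptors, and Bmp4 lay with the ligands that fell.

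The other comparisons of sorted cells are given with the share of all genes called beside them. In D5-LSKCD201+ against mESC, 25 of 48 other pathway genes were called (52.1%, against 37.6%), and in D5-LSKCD201- against mESC 20 of 47 (42.6%, against 14.3%). Against FL-LSKCD201+ 23 of 43 were called (53.5%, against 34.7%), and against BM-LSKCD201+ 25 of 43 (58.1%, against 44.7%). Between the tissues 4 of 27 were called (14.8%), below the 19.1% of all genes. Against FL-LSKCD201+, 21 were higher in D5-LSKCD201+ and 2 lower, and against BM-LSKCD201+, 19 and 6. In the coculture, 2 of 50 were called (4%), near the 2.62% of all genes. Lefty2 was higher in 3D+OP9 (1.14, SE 0.21, adjusted p = 0.0202), at 24.4 ± 4.13 against 10.8 ± 3.00 FPKM. Nbl1, which encodes the BMP antagonist DAN, was lower (-1.24, SE 0.13, adjusted p = 0.00276), at 1.83 ± 0.328 against 5.67 ± 0.520 FPKM. Tgfbr2 was higher in 3D+OP9 by 0.81 and Tmem100 lower by 0.61, both under the size of a call, and both were chosen here after their values were seen.

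For Acvrl1 and Smad6, the 3 genes with the most similar pattern were sought over the 15 sorted-cell libraries among 10943 genes, by Pearson correlation of log2(FPKM + 1). The libraries form 5 groups, so these values describe a likeness between group patterns and carry no p. Acvrl1 was closest to Rab11fip3 (0.992), Clec14a (0.991), a lectin of endothelial cells, and Lrrc41 (0.990). Smad6 was closest to Fgd5 (0.973), a GTPase exchange factor of endothelial and blood stem cells, Hcfc2 (0.967) and Sipa1 (0.967).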

How the data were processed

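Total cells of day 5 coculture (6 libraries) and sorted cells (15 libraries) were measured by mRNA sequencing. Per the study's methods and processing notes, TRIzol extraction and a VAHTS mRNA-seq kit gave the libraries, and reads were aligned with HISAT2 2.0.5, assembled with StringTie 1.3.3 and compared with Cuffdiff 1.3.0. The methods name GRCm38, and the processing notes also list mm9. The authors deposited FPKM per gene and library in 2 tables that were normalized separately, and the coculture values are rounded to 2 decimals. No column of the authors' own comparisons was used, and 0 columns of per-sample values were left out. FPKM keep no depth here, since the steps of low values could not be resolved into reads, so the depth is unknown and the SD of 3 libraries gives the precision.

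Samples were grouped by their labels. FPKM + 1 was taken to log2, and each of 7 comparisons was fitted within its table with limma 3.58.1 (trend, two-sided) in R 4.3.3 on the genes whose mean over the libraries compared reached 0.5 FPKM. All p were adjusted by Benjamini-Hochberg over all genes tested. Calls need an adjusted p under 0.05 and a log2 change of at least 1 in size, the cutoffs the study used on Cuffdiff output. Here the size is on the scale of FPKM + 1, which is stricter for genes of low level. An exact permutation test of 3 against 3 libraries cannot give a p under 0.1 and was not used. The fit was tested on simulated data. Values were not identical between libraries of the same group. Alternatives were a pseudocount of 0.1, no filter, a constant prior variance, a filter at 1 FPKM, the replicate block, quantile normalization, the adjusted p alone, 1 fit over the 5 sorted groups and leaving out each library.

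The 10 genes, the pathway list and the marker lists were chosen with earlier results of these data known. Named by rule were the 10 genes, the 4 largest calls in each direction of the pathway list between the D5 fractions, up to 3 in the coculture, and the 3 most similar genes for Acvrl1, Smad6 and Id1 (genes with a group mean of at least 5 FPKM), of which those for Id1 are not reported here. Pairing by replicate number was checked by the correlation of same-numbered deviations. For FL-LSKCD201+ against BM-LSKCD201+ all 3 were over 0.1 (0.242, 0.202 and 0.159), so the numbers may pair these libraries. Replicates 2 and 3 did not correlate best with their own number, and the labels give no reason for a pairing. Python 3.11.15 with matplotlib 3.10.9 drew the figures.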

Additional observations from a re-analysis of the deposited data

How the results depend on the processing

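Of 931 changes of the 10 genes under alternative settings, 886 kept their direction and side of the thresholds, 26 gained a call, 7 lost one and 12 changed sign. Every change of sign was in a gene that was not called. Bmpr2 in the coculture turned from 0.03 to -0.061 under quantile normalization, and to -0.04 without 3D+OP9 replicate 1, -0.01 without 3D+OP9 replicate 2 and -0.083 without 3D+0.1%gel replicate 1, and was highest (0.134) without 3D+OP9 replicate 3. Under quantile normalization, Smad7 between the D5 fractions was 0.015, Smad6 in D5-LSKCD201- against mESC -0.11 and Acvrl1 between the tissues 0.045. Acvrl1 between the tissues was also 0.08 without BM-LSKCD201+ replicate 2, 0.22 without FL-LSKCD201+ replicate 2 and 0.06 without FL-LSKCD201+ replicate 3, with a lowest value of -0.333 without FL-LSKCD201+ replicate 1. Eng in D5-LSKCD201- against mESC was 0.02 without mESC replicate 1 and 0.063 without D5-LSKCD201- replicate 2, with a lowest value of -0.050 without D5-LSKCD201- replicate 3. Quantile normalization moved the median change of all genes by over 0.1 in 5 comparisons, from -0.12 to -0.01 between the D5 fractions, from 0.05 to -0.10 in D5-LSKCD201- against mESC, from -0.16 to -0.05 against FL-LSKCD201+, from -0.23 to -0.02 against BM-LSKCD201+ and from -0.13 to -0.02 between the tissues. The cause of these shifts was not tested.

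The adjusted p alone, with no minimum change, admits more genes by construction. It called 891 genes and 4 other pathway genes in the coculture. Between the D5 fractions it called 9349 genes, 9 of the 10 and 41 other pathway genes. It called 11496 genes and 43 other pathway genes in D5-LSKCD201+ against mESC, 7418 and 39 in D5-LSKCD201- against mESC, 9823 genes against FL-LSKCD201+, 11486 and 38 against BM-LSKCD201+, and 7446 genes, 3 of the 10 and 15 other pathway genes between the tissues. A pseudocount of 0.1 called 531 genes and 4 other pathway genes in the coculture.

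Without single libraries, the coculture gave 1 to 2 of the 10 genes, 1 to 3 other pathway genes and 209 to 444 genes in all, with the lowest total without 3D+0.1%gel replicate 2. Between the tissues, 2 to 4 other pathway genes were called, with 2 without BM-LSKCD201+ replicate 1. The replicate block changed no call of the 10 genes in any comparison, with 379 genes called in the coculture, 3381 between the D5 fractions and 2607 between the tissues. Outside the tissue comparison the same-numbered libraries did not all correlate over 0.1, so they share only a number.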

Other observations

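The values in this section are for pathway genes that were chosen after their values were seen, and no explanation was tested. Id4, Msx1 and Msx2, which like Id1, Id2 and Id3 are known as BMP targets, stood on the other side between the D5 fractions. Id4 averaged 6.75 ± 0.593 FPKM in D5-LSKCD201-, against 1.72 ± 0.594 in D5-LSKCD201+, a log2 change of -1.53 (SE 0.18, adjusted p = 0.000204 by limma). Msx2 averaged 8.62 ± 0.863 and 0.502 ± 0.155 FPKM, a change of -2.68 (SE 0.12, adjusted p = 1.73e-06), and Msx1 averaged 26.2 ± 10.8 and 5.79 ± 0.493. In the same comparison Id1, Id2 and Id3 had changes of 0.62, 0.92 and 0.57, so the targets on the list did not share a direction. Msx2 was listed at 0 in all 6 libraries of FL-LSKCD201+ and BM-LSKCD201+, whereas Id1 averaged 85.3 and 59.1 FPKM there.

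Among the type I receptors on the list, Acvr1 was called between the D5 fractions, and Bmpr1a, Tgfbr1 and Acvr1b were not. Acvr1 (ALK2), which also binds BMP, averaged 7.56 ± 0.627 FPKM in D5-LSKCD201+, against 1.34 ± 0.0950 in D5-LSKCD201- (log2 change 1.87, SE 0.10, adjusted p = 3.75e-06 by limma). Bmpr1a (ALK3) averaged 2.17 and 4.17 FPKM, a change of -0.70 (SE 0.14, adjusted p = 0.00296) that was not called, Tgfbr1 averaged 4.40 and 4.67 (change -0.02, adjusted p = 0.931), and Acvr1b had a change of 0.09 (adjusted p = 0.549). Bmpr1a was called higher in D5-LSKCD201+ than in FL-LSKCD201+ (1.26, SE 0.10) and than in BM-LSKCD201+ (1.60, SE 0.10), where it averaged 0.321 and 0.0406 FPKM.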
